A study of Mus musculus with 4 samples.

Results

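Erg, Fli1, Ets1, Ets2, Elk3, Elf1, Etv6, Tal1, Gata2 and Lmo2 are 10 transcription factors and cofactors, picked by name from the 46517 Ensembl genes counted in single sorted cells of the mouse ear dermis. All 10 had reads in both replicates. Viable cells carrying CD31 on their surface and lacking CD45 and Lyve1 were sorted from the ear skin of adult female C57Bl/6 mice, 12 to 26 weeks old by the labels, with no treatment or genetic change named. Each replicate was a pool of the ears of 6 mice, spread over plates A and B with 384 wells each, and each well was sequenced after Smart-seq2, which copies whole polyadenylated transcripts. There is therefore 1 group of mice, and the comparisons below are between kinds of wells within the same 2 pools. The CD45 gate leaves out most leukocytes and the Lyve1 gate much of the lymphatic endothelium, so wells of other cell types are those that passed these gates.

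ETS factors bind DNA through a shared winged helix-turn-helix domain that reads a GGAA core, and enhancers of endothelial genes typically hold several such cores. Erg and Fli1 are close relatives that maintain endothelial identity and junctions, Ets1 and Ets2 are activated by phosphorylation downstream of growth factor signalling, Elk3 is a ternary complex factor that acts with SRF and can repress, Elf1 is an ETS factor of endothelial and blood cells, and Etv6 is a repressor needed in haematopoiesis and vessel maintenance. Tal1 is a basic helix-loop-helix factor that binds E-boxes with an E protein partner, Gata2 is a zinc finger factor that binds GATA sites, and Lmo2 is a LIM-only protein that binds no DNA itself and bridges TAL1 and GATA factors in 1 complex. The same complex and several of these ETS factors also work in blood stem cells.

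The members lie on 7 chromosomes of the mm10 assembly. Fli1 (chr9:32422204-32542861) and Ets1 (chr9:32636221-32757820) share chromosome 9, Erg (chr16:95359169-95586593) and Ets2 (chr16:95702075-95721051) share chromosome 16, and Gata2 (chr6:88193891-88207032) and Etv6 (chr6:134035700-134270158) share chromosome 6. Lmo2 is at chr2:103957986-103981878, Tal1 at chr4:115056426-115071755, Elk3 at chr10:93247414-93311135 and Elf1 at chr14:79481194-79582494. All 10 are protein-coding, and values below count reads over their annotated exons.

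RefSeq promoter windows on GRCm38.p6 matched 7 of the 10 members (12 start sites), leaving Fli1, Ets1 and Lmo2 without one. Gata2 and Elk3 were among the members called higher in endothelial than in mural wells by the main test below. The complex of Tal1 reads the GATA sites and E-boxes searched. The windows just before a start of Gata2, of Elk3 and of Tal1 are therefore shown. Each has 250 bases before the start, none of them exonic, read 5′ to 3′ on the gene's strand, with capitals marking a motif on either strand. The ETS core was searched as GGAA. Sites of GATA factors were searched as GATAA. E-boxes, the sites of Tal1 and its relatives, were searched as CANNTG.
Gata2, chr6:88193641-88193890, plus strand: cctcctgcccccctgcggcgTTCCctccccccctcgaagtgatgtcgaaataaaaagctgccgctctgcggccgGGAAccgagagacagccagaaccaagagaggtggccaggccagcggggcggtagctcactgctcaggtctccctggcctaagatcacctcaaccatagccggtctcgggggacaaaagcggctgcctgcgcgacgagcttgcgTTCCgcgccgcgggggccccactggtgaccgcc
Elk3, chr10:93311160-93311409, minus strand: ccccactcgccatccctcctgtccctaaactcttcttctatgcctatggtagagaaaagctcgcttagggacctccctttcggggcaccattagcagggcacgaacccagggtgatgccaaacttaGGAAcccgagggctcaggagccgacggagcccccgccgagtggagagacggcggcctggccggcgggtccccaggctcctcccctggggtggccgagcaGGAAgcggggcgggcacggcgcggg
Tal1, chr4:115056176-115056425, plus strand: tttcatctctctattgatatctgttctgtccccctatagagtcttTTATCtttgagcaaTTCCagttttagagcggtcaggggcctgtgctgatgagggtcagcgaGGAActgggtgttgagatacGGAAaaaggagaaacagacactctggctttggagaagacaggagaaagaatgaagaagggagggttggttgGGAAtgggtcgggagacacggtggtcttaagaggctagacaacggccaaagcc
The Gata2 window held 3 GGAA matches, the Elk3 window 2 and the Tal1 window 4, and the Tal1 window alone of these held a GATAA match (1). No matches of different motifs overlapped. Among all 32817 promoter windows of this length, 93.4% held GGAA, 22.6% GATAA and 66.2% CANNTG, with a median of 3 GGAA matches, and none of the 3 windows shown held a CANNTG match.

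Wells were sorted into kinds without using the members. BEC wells (blood endothelial cells) had reads from 2 or 3 of the endothelial genes Pecam1, Cdh5 and Kdr and less than 100 CPM (counts of a gene scaled to 1000000 counts over all genes of that well) of each of 5 genes of lymphatic, leukocyte or mural cells. There were 338 in replicate 1 and 363 in replicate 2. Clustering without the members gave an artery-like class of 18 and 17 wells, in which 12 of 12 arterial markers were higher than in the other BEC wells, a capillary-like class of 130 and 29 wells (10 of 10 markers), a vein-like class of 67 and 41 wells (11 of 12 markers), and 123 and 276 wells in clusters that took no name. One unnamed cluster of 116 wells held raised markers of other cells (8 lymphatic, 7 mural, 6 fibroblast and 6 leukocyte markers), so part of the sort goes against its label. Leaving that cluster out moved no member's mean BEC level by more than the spread between replicates.

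Depth differed between the pools and between kinds of wells. The plates held from 31864976 to 74739095 reads on genes, with medians of 182926 and 142086.5 reads per well in replicate 1 and 42539.5 and 40324 in replicate 2. BEC wells had medians of 142614.5 and 92974 reads, and vein-like wells were deepest at 216358 and 254312. Shares of wells are therefore also given after each well was thinned at random to 20000 reads. No well name was shared between plates, and no 2 wells held identical counts.

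All 10 factors were read in BEC wells, and Ets2, Elk3 and Fli1 had the highest levels per kilobase of exon. In BEC wells Ets2 averaged 831 CPM on plate A and 735 CPM on plate B in replicate 1, and 540.0 and 529 CPM on the plates of replicate 2. Elk3 averaged 494 and 491 CPM in replicate 1, then 363 and 285 in replicate 2. For both genes the plates of replicate 1 lay above those of replicate 2, while the 2 plates of a replicate lay close together. Fli1 followed the same order, with 374 and 302 CPM in replicate 1 and 172 and 156 in replicate 2. Ets1 averaged 294 and 292 CPM, then 121 and 124 CPM, so its plates also split by replicate.

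**Figure D1:**
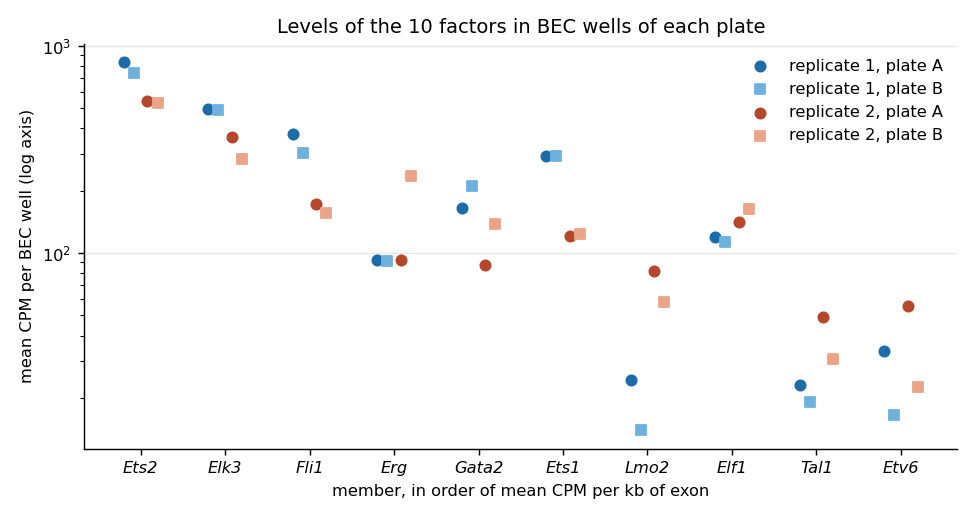
Mean CPM per BEC well (log axis) of the 10 members in each of the 4 plates, ordered from left to right by mean CPM per kilobase of exon. Ets2 is highest in every plate (529 to 831 CPM), and Erg stands at 91.5 to 92.8 CPM in 3 plates and at 236 CPM in plate B of replicate 2.

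Erg was below its close relative Fli1 in replicate 1 and on plate A of replicate 2, and above it on plate B of replicate 2. It averaged 92.8, 91.5 and 92.8 CPM in 3 plates and 236 CPM in plate B of replicate 2, where 1 well held 24.7% of the Erg reads and the mean without it was 129 CPM. Elf1 was even across plates, at 119.6, 113, 140.4 and 163 CPM. Etv6, the repressor, was low and uneven, at 33.7, 16.5, 55.3 and 22.5 CPM.

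Among the partners, Gata2 had the highest CPM on every plate, though on plate A of replicate 2 it lay close to Lmo2, and per kilobase Lmo2 was above it in replicate 2 (32.1 and 20.9 CPM per kb). Gata2 averaged 164 and 211 CPM on the plates of replicate 1, and 87.0 and 137 on those of replicate 2. Tal1 averaged 23.0 and 19.2, then 48.9 and 30.7 CPM, so that replicate 2 was higher on both plates. Lmo2 showed the same direction, with 24.3 and 13.9 CPM against 81.5 and 58.1 CPM. The 8 lymphatic markers moved alongside, summing to 79.1 CPM in BEC wells of replicate 1 and 1008 CPM in those of replicate 2, and their part in the levels of Tal1 and Lmo2 was not tested. In replicate 2 a single well carried 24.8% of the Lmo2 reads.

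Per kilobase of exon, which allows levels of different genes to be compared, the order was Ets2 (114 ± 29.9 CPM per kb, SD, n = 2 replicates), Elk3 (89.5 ± 26.3), Fli1 (71.7 ± 34.7), Erg (37.3 ± 15.2), Gata2 (28.0 ± 10.0), Ets1 (24.5 ± 14.2), Lmo2 (20.4 ± 16.6), Elf1 (19.9 ± 3.73), Tal1 (6.91 ± 3.0) and Etv6 (5.25 ± 1.65). Only Elf1 and Tal1 were neighbours whose values did not overlap across the 2 replicates. Taken within each replicate, the neighbouring pairs Ets2 and Elk3 (135 and 108 CPM per kb, then 92.5 and 70.9), Elk3 and Fli1, Gata2 and Ets1, and Tal1 and Etv6 also kept their order in both, while Fli1 and Erg (47.1 and 48.0 in replicate 2), Erg and Gata2, Ets1 and Lmo2, and Lmo2 and Elf1 did not. Scaling by scran size factors in place of the total moved the mean Ets1 level from 208 to 684 on the CPM scale, so the place of Ets1 rests on the scaling. Exon length counted every annotated exon of the gene, so a gene expressed only as a short transcript is understated.

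The factors also differed in how many wells held a read. At least 1 read of Ets2 was present in 97.9% of BEC wells of replicate 1 (exact 95% interval 95.8 to 99.2) and in 73.6% in replicate 2 (68.7 to 78.0). Fli1 was read in 92.9% (89.6 to 95.4) and 49.3% (44.1 to 54.6). Low reads of mural genes were also widespread in replicate 1. Pdgfrb was read in 92.6% and Kcnj8 in 97.0% of its BEC wells, at means of 21.4 and 35.6 CPM. In replicate 2 each was read in 20.9% of BEC wells. The part of such background reads in the members' shares, before or after thinning, was not tested. In mural-gene wells, which held endothelial RNA too in replicate 1 (4207 CPM of 10 capillary markers) and were deeper than BEC wells (medians of 197461.5 and 170239 reads), the shares with a Fli1 read were 50.0% and 5.26%. These shares were below the BEC shares in both replicates, and the exact intervals met in neither replicate (0.644 to 17.7 in mural-gene wells of replicate 2).

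Erg was read in 56.8% and 36.9% of BEC wells against 37.5% and 21.1% of mural-gene wells, and Gata2 in 69.5% and 24.2% against 37.5% and 10.5%. For both factors the exact intervals overlapped in each replicate, in replicate 2 at 31.9 to 42.1 and 9.55 to 37.3 for Erg and at 19.9 to 29.0 and 2.94 to 24.8 for Gata2, so by the share with a read neither was above that background beyond counting error. With at least 2 reads the intervals parted for Gata2 in both replicates, at 46.7% (41.3 to 52.2) and 16.0% (12.4 to 20.2) of BEC wells against 0 of 8 (upper bound 36.9) and 0 of 38 (upper bound 9.25) mural-gene wells. For Erg they parted in replicate 2, at 28.1% (23.5 to 33.0) against 5.26% (0.644 to 17.7), and overlapped in replicate 1. Lmo2 was read in 18.9% (14.9 to 23.5) and 17.1% (13.4 to 21.4) of BEC wells, against 37.5% of 8 mural-gene wells (8.52 to 75.5) in replicate 1 and 7.89% of 38 (1.66 to 21.4) in replicate 2, so its share is likewise not above that background beyond counting error in either replicate. With at least 2 reads the Lmo2 shares were 9.47% and 11.0% of BEC wells against 0 of 8 and 2.63% of mural-gene wells. Tal1 was read in 29.3% and 17.1% of BEC wells against 12.5% of 8 mural-gene wells and 0 of 38, which allows a share of up to 7.89% by a limit of 3 wells and 9.25% by the exact interval. These intervals and limits cover counting error only.

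After thinning, 84.9% and 68.4% of BEC wells held a read of Ets2, 82.8% and 60.5% of Elk3, 70.0% and 39.5% of Fli1, and 66.5% and 34% of Ets1. Elf1 followed with 41.2% and 31.6%, Gata2 with 40.4% and 15.3%, and Erg with 35% and 29.6%. The least often read were Tal1 (12.8% and 13.3%), Etv6 (13.1% and 12.2%) and Lmo2 (11.9% and 13.9%), so the shares of Ets2, Elk3, Fli1, Ets1 and Gata2 were lower in replicate 2 at the same number of reads per well, while those of these 3 rare factors lay close together. Thinning left out 1 BEC well of replicate 1 and 69 of replicate 2, and the median mitochondrial share was 1.68% and 3.70%, whose part in these shares was not tested. A median BEC well held reads of 6 members in replicate 1 and 4 in replicate 2, and of 5 and 3 after thinning.

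Whether the factors differ along the arteriovenous axis was then examined over sums of wells per replicate and class. None of the 10 members passed edgeR's quasi-likelihood test with replicate as a block at an adjusted p under 0.05 between artery-like and vein-like wells, where 0.0283% of the 14140 genes tested passed (Cd36 and Gja4 higher, 0.0141%, and Aqp1 and Selp lower). Nor did any member in capillary-like wells against the mean of the other classes, where 0 genes (0% of those tested) passed and 3.75% had an unadjusted p under 0.05, none of them a member. The members' median log2 difference between artery and vein was -0.36 beside -0.47 over all genes. By unadjusted p under 0.05, 3 members (Ets2, Etv6 and Gata2) and 7.61% of all genes stood out between artery and vein. A difference that missed the threshold with 2 pools is not shown to be absent.

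Ets2, Erg, Tal1 and Etv6 had lower normalised sums in the artery-like than in the vein-like wells of both replicates without overlap, and Elf1 had higher ones, against 28.3% and 12.9% of all genes tested. The difference of Elf1 turned from 0.84 to -0.52, and that of Etv6 from -5.95 to 0.029, where up to 300 CPM of the genes of other cell types was allowed, and that of Ets2 to 0.20 with classes from marker scores. Both settings formed the classes anew, so they compare largely other wells. The artery-like class then held 62 and 169 wells with the 300 CPM limit and 89 and 119 with marker scores, in place of 18 and 17. Ets2 averaged 597 and 479 CPM in artery-like wells, 864 and 503 in capillary-like wells and 881 and 1036 in vein-like wells, with a log2 difference between artery and vein of -0.85 (SE 0.36, unadjusted p 0.047, adjusted p 0.628 by edgeR). Ets2 belongs to the genes that respond early to growth factors, and vein-like wells also had the highest summed level of 16 genes induced by tissue dissociation, 27707 and 35268 CPM against 14735 and 13651 CPM in artery-like wells. The part of that difference in the level of Ets2 was not tested.

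Erg was lowest in artery-like wells, at 16.6 and 55.3 CPM, against 84.7 and 83.2 CPM in capillary-like and 88.6 and 111 CPM in vein-like wells. The log2 difference between artery and vein was -1.33 (SE 1.06, adjusted p 0.766 by edgeR), and it was -0.068 with the limit of 300 CPM and -0.25 with classes from marker scores. In replicate 2, 1 artery-like well held 63.4% and 1 capillary-like well 58.5% of the Erg reads of their class, and without them the means were 29.7 and 36.1 CPM. After thinning, 11.1% and 23.5% of artery-like wells held an Erg read against 50.7% and 34.1% of vein-like wells, and the exact intervals did not meet in replicate 1 (1.38 to 34.7 and 38.2 to 63.2) and overlapped in replicate 2 (6.81 to 49.9 and 20.1 to 50.6). Fli1, by contrast, showed no such order in replicate 1, with 289 CPM in artery-like and 285 CPM in vein-like wells, and 93.1 and 329 CPM in replicate 2. In the artery-like wells of replicate 2, 1 well held 75.5% of the Fli1 reads.

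Tal1 was read least in artery-like wells, at 12.8 and 0.414 CPM against 23.6 and 27.1 CPM in capillary-like and 32.9 and 67.8 CPM in vein-like wells. A total of 38 reads and 1 read lay behind the artery-like values, and the log2 difference of -2.76 had an SE of 2.20 (adjusted p 0.768 by edgeR). It was -0.98 with the limit of 300 CPM and -0.56 with classes from marker scores, and in replicate 1 the artery-like mean was 4.42 CPM without 1 well that held 71.1% of the reads. Etv6 was nearly absent from artery-like wells, with 2 reads in 18 wells and 0 reads in 17 wells, against 337 and 376 reads in vein-like wells. In replicate 2, 1 vein-like well held 47.6% of the Etv6 reads, and the vein-like mean of 43.7 CPM was 15.5 CPM without it. With classes from marker scores the log2 difference was -0.91 in place of -5.95. The test over replicates gave an unadjusted p of 0.038 and an adjusted p of 0.628 by edgeR, and with no read in 17 wells a true share as high as 17.6% is not excluded by counting.

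Gata2 pointed the other way, and Lmo2 went both ways. Gata2 averaged 497 and 110.1 CPM in artery-like, 234 and 65.1 CPM in capillary-like and 144 and 75.9 CPM in vein-like wells, and was highest in artery-like wells of each replicate. In replicate 2 this rested on 1 artery-like well with 49.2% of the reads, without which the mean was 53.8 CPM, beside 53.1 CPM in vein-like wells without their highest well. Its log2 difference between artery and vein was 1.42 (SE 0.61, unadjusted p 0.048, adjusted p 0.628 by edgeR), and the classes overlapped across replicates. It was 0.43 with the limit of 300 CPM and 0.34 with classes from marker scores. The 5 erythroid markers summed to 591 CPM in the artery-like wells of replicate 1, where Gata2 was highest, against 84.8 CPM in capillary-like and 36.4 CPM in vein-like wells, while all 5 were at 0 in the artery-like wells of replicate 2, and their part in the level of Gata2 was not tested. Lmo2 was high in the artery-like wells of replicate 2 only, at 158 CPM, against 17.6 CPM in replicate 1 and 9.58 to 30.1 CPM in the other classes. Its log2 difference between artery and vein was -0.95 in replicate 1 and 3.66 in replicate 2.

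**Figure D2:**
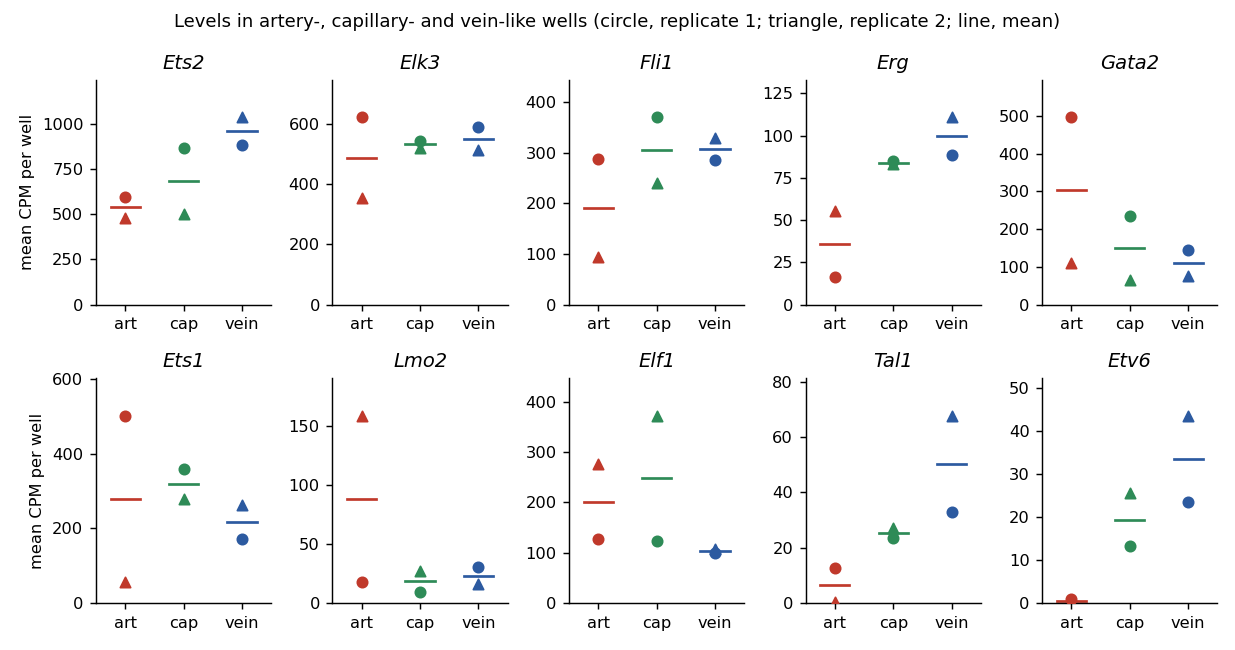
Mean CPM per well (linear axes from 0, a scale of its own for each gene) in artery-like (art), capillary-like (cap) and vein-like wells, with circles for replicate 1, triangles for replicate 2 and a line at their mean. Erg, Tal1 and Etv6 are lowest in artery-like wells and Gata2 is highest there in each replicate (in replicate 2 through 1 well), while the 2 replicates lie far apart for Ets1, Lmo2 and Fli1 in artery-like wells.

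Ets1 and Elk3 changed order between the replicates, and the mean of Elf1, though not its share of wells before thinning, was lowest in vein-like wells of both. Ets1 averaged 503 CPM in artery-like wells of replicate 1, the highest of the 3 classes, and 55.2 CPM in those of replicate 2, the lowest. Elk3 stayed between 354 and 622 CPM in all classes, with a log2 difference between artery and vein of 0.13 (SE 0.38, adjusted p 0.965 by edgeR). Elf1 averaged 127 and 276 CPM in artery-like, 123 and 373 CPM in capillary-like and 99.7 and 107 CPM in vein-like wells. In artery-like wells 1 well held 41.0% and 45.3% of its reads, and the share of wells with an Elf1 read before thinning ran the other way, at 61.1% and 35.3% of artery-like against 76.1% and 58.5% of vein-like wells. Vein-like wells were deeper, with medians of 216358 and 254312 reads against 117227.5 and 186735 in artery-like wells. These shares therefore do not give the order at equal depth.

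Wells of other cell types that passed the sort gave a further comparison, chosen after the data had been seen. Mural-gene wells (8 and 38 wells, Pdgfrb or Kcnj8 at 300 CPM or more and Pecam1 under 100 CPM) hold pericytes or smooth muscle cells by their markers, with 10 of 10 mural markers read and summed at 19529 and 14705 CPM. They also carried 7 fibroblast markers summed at 3063 and 4911 CPM, with Pdgfra at 0 in replicate 1, against 441 and 721 CPM in BEC wells, and the part of these genes in the differences from BEC wells was not tested. Lymphatic-gene wells (12 and 70 wells, Prox1 at 100 CPM or more) summed 8 lymphatic markers to 5747 and 11835 CPM. The mural-gene wells of replicate 1 also carried 4207 CPM of 10 capillary markers, against 169 CPM in replicate 2, so endothelial RNA was present in those 8 wells.

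Gata2, Fli1, Ets2 and Elk3 were higher in BEC than in mural-gene wells (4 of 10 members by edgeR's quasi-likelihood test with replicate as a block, where 1.99% of the 17377 genes tested passed and 1.02% were higher). Gata2 averaged 189 and 113 CPM in BEC wells and 1.89 and 0.758 CPM in mural-gene wells, where the groups were far apart. Its log2 difference was 7.10 (SE 1.36, adjusted p 3.2e-05 by edgeR), and the mural sums held 3 and 4 reads. The ratio of summed levels was 109 (exact 95% counting interval 37.3 to 528) in replicate 1 and 193 (75.5 to 710.5) in replicate 2.

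Fli1 averaged 335 and 164 CPM in BEC wells and 55.2 and 1.44 CPM in mural-gene wells (log2 difference 4.50, SE 1.08, adjusted p 0.0031 by edgeR). In replicate 1, 1 of the 8 mural-gene wells held 84.8% of their Fli1 reads. Ets2 averaged 779 and 534 CPM against 211 and 102 CPM (log2 difference 2.16, SE 0.53, adjusted p 0.0037 by edgeR), and Elk3 492 and 323 CPM against 246 and 16.0 CPM (log2 difference 2.40, SE 0.64, adjusted p 0.012 by edgeR). The Elk3 difference was 0.82 in replicate 1 and 4.90 in replicate 2, both higher than in mural-gene wells but far apart in size. Without the replicate block only Gata2 passed (adjusted p 0.047 by edgeR), DESeq2 called Gata2, Fli1 and Lmo2, and limma on mean CPM called none of the 10 and no other gene, with 2798 of 17377 genes at an unadjusted p under 0.05. Plate A alone called Fli1 and Ets2, and plate B alone Gata2.

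Lmo2 averaged 18.7 and 69.5 CPM in BEC wells against 2.01 and 6.51 CPM in mural-gene wells, and did not pass (log2 difference 4.60, SE 1.59, adjusted p 0.138 by edgeR). Normalised sums of Erg, Etv6 and Lmo2, like those of the 4 members called, were higher in BEC wells of both replicates without overlap (7 of 10 members, against 38.0% of all genes tested). Erg averaged 92.1 and 166 CPM against 35.1 and 27.5 CPM. Ets1 (293 and 123 CPM against 228 and 91.4 CPM) and Elf1 (116 and 152 CPM against 185 and 91.6 CPM) overlapped between BEC and mural-gene wells. Tal1 went both ways, with 22.8 CPM from a single mural-gene well in replicate 1 and 0 reads in replicate 2, where it was at least 82.7-fold higher in BEC wells against a floor of 3 reads over the mural-gene wells, and 67.2-fold by the exact 95% lower bound for counting error.

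**Figure D3:**
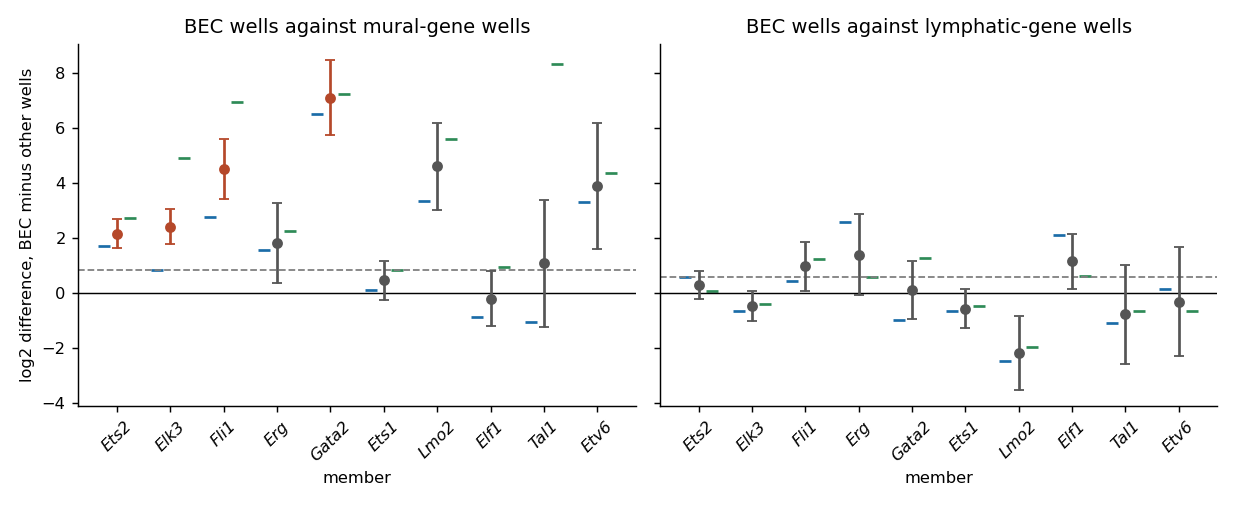
Log2 difference of summed wells, BEC minus mural-gene wells (left) and BEC minus lymphatic-gene wells (right), with bars of 1 SE, short dashes for replicate 1 (left of each point) and replicate 2 (right), red for adjusted p under 0.05 and a dashed line at the median of all genes (0.83 and 0.57). Gata2 is farthest from 0 on the left at 7.10, Lmo2 is lowest on the right at -2.19, and the Tal1 dash at 8.32 rests on a mural sum of 0 reads.

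Against lymphatic-gene wells no member passed the test (1.01% of 17377 genes did, and no member had an unadjusted p under 0.05 by edgeR, against 8.83% of genes). Lmo2 stood farthest from 0, with 75.4 and 193 CPM in lymphatic-gene wells against 18.7 and 69.5 CPM in BEC wells (log2 difference -2.19, SE 1.34, adjusted p 0.623 by edgeR). Its sums, like those of Elk3 and Tal1, were lower in BEC wells of both replicates without overlap, against 14.7% of all genes, and those of Erg, Ets2 and Elf1 were higher, against 33.7%. In replicate 1, 1 of the 12 lymphatic-gene wells held 92.7% of the Lmo2 reads, the mean without it was 12.3 CPM, below the BEC mean, and after thinning 8.33% of these wells (1 of 12) held a read against 11.9% of BEC wells. In replicate 2, where no well held more than 17.9%, 41.0% of lymphatic-gene wells (25 of 61, exact 95% interval 28.6 to 54.3) held a Lmo2 read after thinning against 13.9% of BEC wells (10.2 to 18.4). Gata2 averaged 317 and 46.7 CPM in lymphatic-gene wells, above BEC wells in replicate 1 and below them in replicate 2. The order in replicate 1 rested on 1 lymphatic-gene well with 49.3% of the Gata2 reads. Without that well the mean was 155 CPM, below the BEC mean of 189 CPM.

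**Figure D4:**
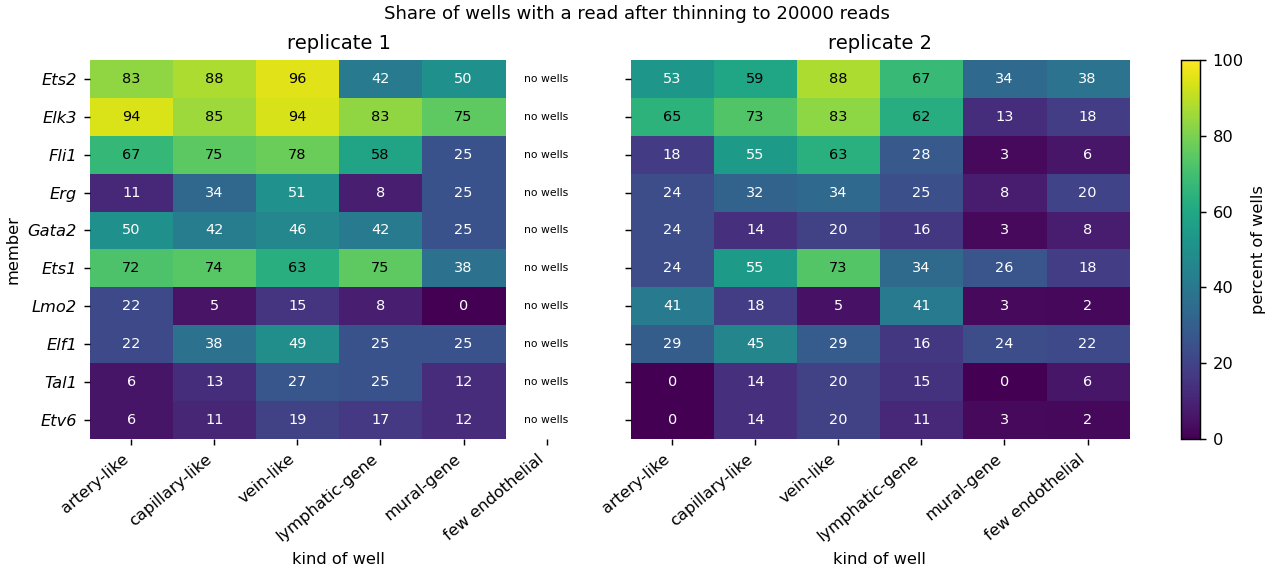
Percent of wells with at least 1 read of each member after thinning to 20000 reads, by kind of well (columns), for replicate 1 (left, which has no wells with few endothelial genes) and replicate 2 (right). Ets2 and Elk3 are read in most wells of the 3 endothelial classes, Gata2 and Fli1 in 2.63% of mural-gene wells of replicate 2, and Lmo2 in 41.2% of artery-like and 41.0% of lymphatic-gene wells of that replicate.

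The last comparison was with the 174 wells that passed the limits on reads and genes yet had a read of fewer than 2 of Pecam1, Cdh5 and Kdr. All were in replicate 2, so no test across replicates was possible and the differences below describe that pool alone. In replicate 1 even the mural-gene wells all (100%) held reads of Pecam1, Cdh5 and Kdr. In replicate 2, 23.7% of them held a Cdh5 read and 28.9% a Kdr read. The rule thus does not show that the replicate 1 sort lacked non-endothelial wells. The 174 wells were shallow, with a median of 10612.5 reads against 92974 in BEC wells, 15.9% of their reads were mitochondrial against 3.70%, and 21 of them were mural-gene wells. Markers of some other cells were also higher, at 1653 against 721 CPM for 7 fibroblast markers and 180 against 11.5 CPM for 5 Schwann cell markers. Without the mural-gene wells these stood at 1185 and 205 CPM and the mitochondrial share at 23.0%. Other markers were lower than in BEC wells, at 54.4 against 235 CPM for leukocytes and 9.11 against 80.2 CPM for platelets and megakaryocytes. Erythroid markers stood at 4.86 against 25.3 CPM and keratinocyte markers at 69.9 against 74.9 CPM. The part of these in the members' differences was not tested. Fewer endothelial cells and less RNA per cell cannot be told apart in these wells.

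A median well of this kind held a read of 1 member. Of the 10 members, 8 were at least 2-fold higher in the sum of BEC wells, beside 37.5% of the 20151 genes compared, and none was at least 2-fold lower, beside 22.1%. Gata2 differed most, with 102 CPM in the summed BEC wells and 6.59 CPM in the others (log2 difference 3.93), followed by Elk3 (402 and 50.0 CPM, 3.01), Lmo2 (60.9 and 9.17 CPM, 2.72) and Ets2 (694 and 170 CPM, 2.03). Tal1 (1.43), Fli1 (1.31), Ets1 (1.26) and Erg (1.01) were closer. Elf1 differed by 0.51, and Etv6 was higher in the wells with few endothelial genes (-0.60), where 1 well held 96.0% of its reads, as 1 well held 94.6% of the Fli1 reads.

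Without the 21 mural-gene wells, 4 of the 10 members were at least 2-fold higher in BEC wells (Gata2 2.61, Ets2 1.86, Elk3 1.83 and Lmo2 1.32), beside 44.6% of genes, and Etv6 was at least 2-fold lower (-2.02), beside 24.0%. Gata2, Elk3, Ets2 and Lmo2 were also at least 2-fold higher on each plate, Gata2 by 3.65 on plate A and 4.04 on plate B, beside 38.3% and 49.9% of all genes. Ets1 and Tal1 turned from 3.18 and 3.32 on plate A to -0.29 and -0.14 on plate B, and Etv6 from 3.95 to -3.09 (23.3% of genes were at least 2-fold lower on plate B). After thinning and without mural-gene wells, 10.3% of 29 such wells held a Gata2 read (exact 95% interval 2.19 to 27.4) against 15.3% of BEC wells (11.4 to 19.9), 24.1% held an Elk3 read (10.3 to 43.5) against 60.5% (54.7 to 66.2), and 31.0% an Erg read (15.3 to 50.8) against 29.6% (24.4 to 35.2). These are shares of the wells of 1 pool, so the intervals cover counting error only and compare no replicates.

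**Figure D5:**
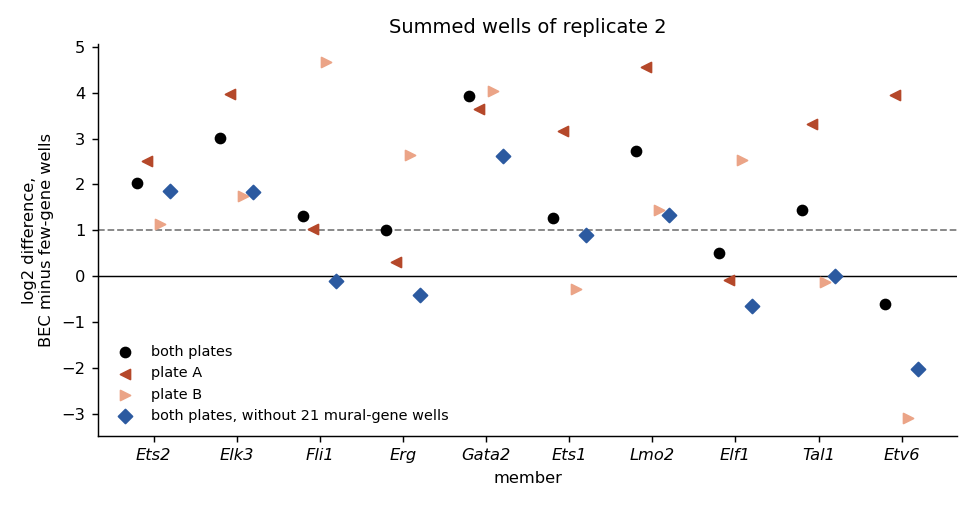
Log2 difference of summed wells in replicate 2, BEC minus wells with few endothelial genes, for both plates (black), plate A, plate B, and both plates without the 21 mural-gene wells (blue), with a dashed line at a 2-fold difference. Gata2, Ets2, Elk3 and Lmo2 lie above that line in all 4 settings, while Etv6 spans from 3.95 on plate A to -3.09 on plate B.

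The wider families gave no calls between classes. Of the other 19 ETS genes, 15 were read in BEC wells of replicate 1 and 17 in replicate 2, and Etv2, the ETS factor of embryonic endothelial specification, was at 0 in both. Their summed mean level was 367 and 434 CPM, below that of Ets2 alone, and the 2 highest by the mean of the replicates were Elk4 (108 and 111 CPM), a ternary complex factor like Elk3, and Elf2 (62.7 and 98.9 CPM). In replicate 1 Gabpa (94.5 CPM), a member of the family found by looking at the values, was above Elf2. None of the 9 tested between artery-like and vein-like wells passed, nor any of the 14 tested against mural-gene or lymphatic-gene wells, in either direction.

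Among 19 partners of the GATA, TAL and LMO factors, Tcf4, an E protein that can pair with Tal1, was highest with 564 and 574 CPM in BEC wells, and Ldb2, an adaptor for LIM proteins, had 235 and 198 CPM. Gata1 was at 0 in BEC wells of both replicates. Tcf4 averaged 252 and 250.3 CPM in mural-gene wells, and Ldb2 229 and 7.95 CPM. No gene of this list passed in any of the 4 comparisons (12 tested between the classes and 14 between cell types). In BEC wells the summed level of 6 platelet and megakaryocyte markers was 7.23 and 80.2 CPM, and that of 8 leukocyte markers was 30.1 and 235 CPM, both from cells that can carry Tal1, Gata2 or Fli1, and their part in the members' levels was not tested.

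A list of 15 endothelial genes with known regulation by ETS factors or GATA2 was also followed. Of these, 12 were higher in BEC than in mural-gene wells by edgeR and none lower, against 1.02% of all genes, with a median log2 difference of 2.76 beside 0.83 over all genes and 2.28 over the members. These kinds of wells were chosen by endothelial and mural genes. That choice set the direction for a list of endothelial genes, so the count is no result about their regulation. The 12 genes included Nos3 (5.81, SE 1.1), which encodes endothelial nitric oxide synthase, Tek (5.67, SE 0.89), the angiopoietin receptor, Robo4 (4.87, SE 0.80), a guidance receptor of endothelium, and Egfl7 (4.18, SE 0.41), a secreted endothelial factor. Against lymphatic-gene wells 4 of 15 were higher, against 0.512% of all genes, namely Cd34 (3.94, SE 0.48), Flt1 (3.63, SE 0.72), Esam (2.61, SE 0.39) and Eng (1.62, SE 0.41). Between the classes 0 of 15 passed, with 6 at an unadjusted p under 0.05 between artery and vein by edgeR, against 7.61% of all genes. For Egfl7 the artery minus vein log2 difference was 0.52 (SE 0.22) and for Eng it was -0.60 (SE 0.28, unadjusted p 0.067 by edgeR). Beside Egfl7, the 5 genes of the list with an unadjusted p under 0.05, picked out after the values were seen, were Edn1 (2.66, SE 0.91), Cldn5 (2.49, SE 0.29, adjusted p 0.059 by edgeR) and Icam2 (1.86, SE 0.49) with higher values in artery-like wells, and Emcn (-0.84, SE 0.35) and Cd34 (-0.72, SE 0.24) with lower ones.

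Of the 5 genes tied to SRF, the partner of ternary complex factors such as Elk3, Egr1 was higher in BEC than in lymphatic-gene wells (log2 difference 1.57, SE 0.36, adjusted p 0.0021 by edgeR). Egr1 is also induced by tissue dissociation, and the 16 dissociation-induced genes summed to 18003 and 12726 CPM in BEC wells against 9107 and 4869 CPM in lymphatic-gene wells. No other gene of that list passed. Mcl1 averaged 229 and 280 CPM in BEC wells.

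Across single BEC wells the correlations between factors were weak. Of the 45 pairs of members, 4 had a Pearson correlation of log2(CPM + 1) above 0.1 in both replicates, the highest being Elk3 with Ets2 (0.22 and 0.19). The genes most like Erg by the lower of the 2 replicates' correlations, among 6884 compared, were Rpl35 (0.19), Rps26 (0.18) and Ddah2 (0.18). Those most like Gata2 were Ywhab (0.17), March6 (0.16) and Zfr (0.16), those most like Tal1 were Rgs16 (0.17), Sgk1 (0.17) and Atl3 (0.16), and those most like Lmo2 were Clstn1 (0.15), Sil1 (0.15) and Bod1l (0.15). Wells of a plate share library preparation and differ in depth, with which Ets2 correlated at 0.21 and 0.45 and Elk3 at 0.16 and 0.48, and correlations of this size in sparse counts are a description only.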

How the data were processed

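Per the labels and the study's methods, single 50-bp Smart-seq2 reads were mapped to mm10 (GRCm38) and counted per gene. TopHat2 2.1.1, SAMtools 0.1.18 and Subread 1.4.6-p5 are named in the submitters' processing notes. The authors deposited raw counts per gene and well, 1 table for each of 4 plates, with 92 spike-ins that were left out of totals. Of 46517 gene identifiers, 46005 matched a symbol in GENCODE vM21, whose exons gave positions and lengths, and 0 columns went unused. Reads were taken as not strand-specific, so transcripts antisense to a member cannot be told apart from it.

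Wells with at least 600 counts and 500 to 8000 genes were kept, the limits of the study. Doublets were not called. Wells of other types were those with Prox1 at 100 CPM or more (lymphatic-gene) or Pdgfrb or Kcnj8 at 300 CPM or more with Pecam1 under 100 CPM (mural-gene). Classes came from Leiden clustering (leidenalg 0.10.2) of scran 1.30.0 normalised values of 1000 variable genes without the members, the gene lists, or mitochondrial, ribosomal-protein and dissociation-induced genes, with 15 components and 15 neighbours, at the lowest resolution giving all 3 classes. A marker counted as higher at 1.25-fold, and a class name needed at least 3.

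Counts were summed per replicate and kind of well and tested with edgeR 4.0.16 (R 4.3.3, quasi-likelihood test after TMM scaling, with the replicate as a block, at least 10 counts in at least 2 sums, Benjamini-Hochberg adjustment over all genes tested, threshold 0.05). Such a fit has 2 residual degrees of freedom. For the comparisons with other cell types edgeR estimated an infinite prior, so p-values there rest on a spread shared over genes and not on a member's own spread between pools. DESeq2 1.42.0, limma 3.58.1 on log2(mean CPM + 1) and other settings were alternatives. The test planned against wells with few endothelial genes could not be made, since replicate 1 has none, and sums of replicate 2 are given instead, a gene counting as different at 2-fold. The comparisons with lymphatic-gene and mural-gene wells were added after seeing the data. The spread is that between 2 pools of mice of 1 strain and sex. The labels' age range differs from that in the study's methods.

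The scripts were tested on simulated data with known changes before use.

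The replicate is a block because the kinds of wells of 1 replicate came from the same pool of mice. Same-numbered sums had deviations that correlated at 0.077 to 0.108 between classes and at 0.027 to 0.093 between cell types.

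The members and lists were chosen with earlier results of these data known. All 10 members are named. From each list, genes that passed with 1 direction shared by the 2 replicates are named, at most 4 per comparison by size, and otherwise the 2 with the highest mean CPM in BEC wells. Exact binomial intervals are at 95%.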

Additional observations from a re-analysis of the deposited data

Results flagged for a closer look

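Erg averaged 236 CPM in the BEC wells of plate B of replicate 2, against 91.5 to 92.8 CPM in the other 3 plates, a gap of 0.991 of the whole range of the 4 plates. Without the well with the most Erg reads, which held 24.7% of them, the mean of that plate was 129 CPM. Of the 10 members this was the only one with a plate so far from the others, and the limit for naming such a gap is one that chance passes in about 1 in 20 groups.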

How the results depend on the processing

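No member was called between artery-like and vein-like wells under any alternative except Etv6 with DESeq2 (log2 difference -5.82, adjusted p 0.017), while the count of all genes called there (4) became 788 with DESeq2, 110 without the low-count filter, 0 without the replicate block, 2 with limma, 34 on plate A, 14 on plate B, 63 after thinning, and 0 with a limit of 300 CPM, at the next higher resolution or with classes from marker scores. For capillary-like wells (0) it became 202 with DESeq2, 29 without the filter, 14 on plate A, 2 on plate B and 8 after thinning. Between artery and vein, Etv6 turned to 0.029, Elf1 to -0.52 and Ets1 to -0.58 with the 300 CPM limit, and Ets2 to 0.20 and Elk3 to -0.27 with classes from marker scores. In both settings the classes were formed anew and the artery-like class was far larger. Fli1 turned to 0.40, Lmo2 to -4.70, Ets1 to -0.27 and Elk3 to -0.37 on plate A, Ets1 to -0.34 and Elk3 to -0.23 with limma, Ets1 to -0.10 and Elk3 to -0.17 after thinning, and Elk3 to -0.015 without the filter. The median of all genes between artery and vein was -0.30 with DESeq2 size factors and -2.20 on plate A. Class comparisons with the 10 CPM limit could not be made, since no resolution gave all 3 classes. The causes were not tested.

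Against mural-gene wells, 346 genes were called, and 1130 with DESeq2, 85 without the replicate block, 0 with limma, 138 on plate A, 87 on plate B and 145 with a limit of 10 CPM. Against lymphatic-gene wells 176 were called, and 418 with DESeq2, 13 without the block, 1 with limma, 43 on plate A, 79 on plate B and 72 with a limit of 10 CPM. Gata2, Fli1, Ets2 and Elk3 were called in all of the 6 other settings (DESeq2 size factors, no filter, a limit of 300 CPM, thinning, all 3 endothelial genes, and without the cluster with other markers). With the 10 CPM limit only Ets2 and Gata2 were called. Elf1 turned to 0.028 with limma, 1.96 on plate A, 0.46 after thinning and 0.92 without replicate 1 (-0.89 without replicate 2). Tal1 turned to -0.024 on plate A and -1.08 without replicate 2 (8.32 without replicate 1), and Ets1 to -0.26 on plate B. The block changed the call of Fli1 (adjusted p 0.277 without it), Ets2 (0.190) and Elk3 (0.439) by edgeR and of no other member.

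Against wells with few endothelial genes, 7551 genes were at least 2-fold higher, and 18247 where a read of none of the 3 genes was allowed, which left only 2 wells with 17308 reads in all. Without mural-gene wells Erg turned to -0.41, Fli1 to -0.11 and Elf1 to -0.65. For each of these, 1 of the 153 wells left held most reads of the gene (64.2%, 94.6% and 77.2%). Elf1 also turned to -0.085 on plate A and -0.33 after thinning, where Etv6 turned to 3.95 and 4.03, and on plate B Ets1 turned to -0.29 and Tal1 to -0.14. DESeq2, limma, the block, leaving out a replicate and the filter could not be tried there, since replicate 1 has no such wells. All alternatives for lymphatic-gene and mural-gene wells, and the removal of mural-gene wells, were chosen after seeing the data. Mean BEC levels moved by more than 1 SD for 3 members with scran size factors (Ets1 most, from 208 to 684) and for 1 each on plate A, on plate B and with the 10 CPM limit. Leaving out 1 of 2 replicates cannot move a mean that far. Depth limits the shares: thinning moved the share of most members beyond its interval.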
